A study of Schizosaccharomyces pombe with 4 samples.

Results

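Schizosaccharomyces pombe, the fission yeast, has many introns that are far shorter than those of animals. The introns described here are 772 annotated introns of 45 nt or less that lie inside the coding sequence of 606 nuclear protein-coding genes with 1 to 4 introns each, out of 5186 annotated introns of nuclear protein-coding genes with any number of introns. Genes whose symbols begin with rps, rpl or rpp, the ribosomal protein genes, were left out. The rule for members uses the annotation (length, place in the coding sequence, number of introns in the gene and gene symbol) and no read. Their lengths run from 30 to 45 nt. By place, 140 are the only intron of their gene, 275 the first, 131 internal and 226 the last. They are compared below with the 3119 coding introns above 45 nt in the same kind of gene, called the longer introns.

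The reads are long single-molecule cDNA reads of nascent RNA, which is RNA still held by the polymerase in the nucleus. The 3′ end of a read marks how far the polymerase had gone, and gaps in its alignment show which introns had been removed by then. Of the 30 °C libraries, replicate 1 is a wild-type h- strain, and replicate 2 is an h+ strain labelled prp5::KanMx-prp5-WT. The wild type shifted to 37 °C, called the shifted wild type below, has the label of replicate 1, and the prp2-1 strain carries leu1.32 and prp2-C387Y. The prp2-1 allele is known as a temperature-sensitive splicing mutant. Both 37 °C cultures were grown at 26 °C and shifted to 37 °C for 2 h, so the wild type at 37 °C shares the shift with the mutant. The 37 °C groups have 1 library each, with no replicate, and tests on their reads compare libraries, not conditions.

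The spliceosome recognises an intron through its 5′ splice site, a branch point adenosine near its 3′ end, and a 3′ splice site that ends in AG. In fission yeast the branch point commonly lies in a motif such as CTAAC, and a stretch rich in pyrimidines between it and the AG is bound by the large subunit of U2AF, which prp2 encodes. An intron of about 40 nt has little room for these parts, since the 5′ site and the branch point must both be bound inside it. Both ends of such an intron can be paired across the intron itself, the mode known as intron definition.

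Printed below, 5′ to 3′ on the strand of the gene, are introns on which the results turn, with 10 bases of exon on each side. They were read from the ASM294v3 assembly. Capitals mark the first 6 bases of the intron, the last match to CTAAC, or to its variants with another base (CTAAT and also CTGAC, or CTGAT), where there is one, and the last 3 bases. The pair in cct6 and the intron of tif301 are the most deeply read members, and those of elo2, rpb4 and cct2 show the range between libraries.
tif301 intron 1: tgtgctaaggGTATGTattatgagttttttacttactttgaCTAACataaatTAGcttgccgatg
cct6 intron 1: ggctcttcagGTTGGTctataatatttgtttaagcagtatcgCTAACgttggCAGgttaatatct
cct6 intron 2: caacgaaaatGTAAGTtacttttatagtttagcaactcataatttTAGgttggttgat
elo2 intron 1: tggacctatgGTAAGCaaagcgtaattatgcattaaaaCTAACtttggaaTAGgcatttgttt
rpb4 intron 1: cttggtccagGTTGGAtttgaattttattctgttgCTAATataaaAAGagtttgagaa
cct2 intron 1: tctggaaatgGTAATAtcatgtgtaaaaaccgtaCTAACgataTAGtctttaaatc
atg44 intron 1: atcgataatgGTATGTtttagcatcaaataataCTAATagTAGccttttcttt
The tif301 intron lies on chromosome II at 3314377 to 3314421, plus strand, and those of cct6 on chromosome II at 942999 to 943043 and 943118 to 943155, plus strand. The elo2 intron lies on chromosome I at 2812369 to 2812411, minus strand, the rpb4 intron on chromosome II at 1055714 to 1055751, plus strand, and the cct2 intron on chromosome I at 644714 to 644749, plus strand. The atg44 intron, with 33 nt the shortest of the named introns, lies on chromosome I at 3367021 to 3367053, minus strand. All 7 interrupt coding sequence. In cct6 intron 2 none of the 4 motifs is present, while in the atg44 intron the motif ends 5 bases before the exon.

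Splicing of the members was seen in every library, and in the wild-type libraries about as many reads still held the intron as had lost it. A read counted as spliced when a gap ended within 5 nt of both annotated sites, and as unspliced when at least 90% of the intron was aligned without a gap of 20 nt or more. It had to extend 10 nt or more into both neighbouring sequences. In 30 °C replicate 1, 986 of 1753 scored reads were spliced, which is 56.2% (95% Wilson interval 53.9 to 58.6). In 30 °C replicate 2, 505 of 1131 were spliced, which is 44.7% (41.8 to 47.6). The mean of the 30 °C replicates was 50.4% ± 8.20 (SD, n = 2). In the shifted wild type 764 of 1562 were spliced, 48.9% (46.4 to 51.4), and in prp2-1 302 of 1083, 27.9% (25.3 to 30.6). The value for prp2-1 was thus below all 3 wild-type values, and the shifted wild type lay between the 30 °C replicates. Intervals here and below cover counting error only, since reads copied by PCR are not independent molecules and a read can cross more than 1 member.

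The libraries held 32176 to 123756 reads, and 952 to 1608 of them crossed a member. Between 435 and 541 members were read in a library, and 219 were read in all 4. In all, 715 members had at least 1 scored read and 57 had none, with a median of 5 reads per member summed over the libraries. At least 10 scored reads in a library were reached at 31 and 10 members at 30 °C, at 21 in the shifted wild type and at 9 in prp2-1. Read length differed: the median aligned span was 256 and 436 nt at 30 °C, 890 nt in the shifted wild type and 771 nt in prp2-1. Of the reads across a member, 0.460% to 1.35% were in neither state and were left out of the shares.

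The members had lower spliced shares than the longer introns in every library, by a few percentage points. The longer introns were spliced in 64.6% and 48.5% of reads at 30 °C (mean 56.6% ± 11.4, SD, n = 2), in 52.4% in the shifted wild type and in 30.9% in prp2-1. The difference, short minus longer, was −8.35 points in 30 °C replicate 1 (95% Newcombe interval −10.9 to −5.83), −3.86 in replicate 2 (−7.02 to −0.677), −3.45 in the shifted wild type (−6.19 to −0.703) and −2.97 in prp2-1 (−5.84 to 0.0262). The interval in prp2-1 reaches 0. These gaps are taken within a library. They are smaller than the difference between the 30 °C replicates at the short introns, given below, but that is a difference between libraries. At the limit of the rule itself no step was seen in 1 direction: the 111 introns of 45 nt and the 114 of 46 nt had spliced shares of 54.4% and 55.3% in 30 °C replicate 1, 47.4% and 40.3% in replicate 2, 48.6% and 51.5% in the shifted wild type, and 29.9% and 28.7% in prp2-1.

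**Figure D1:**
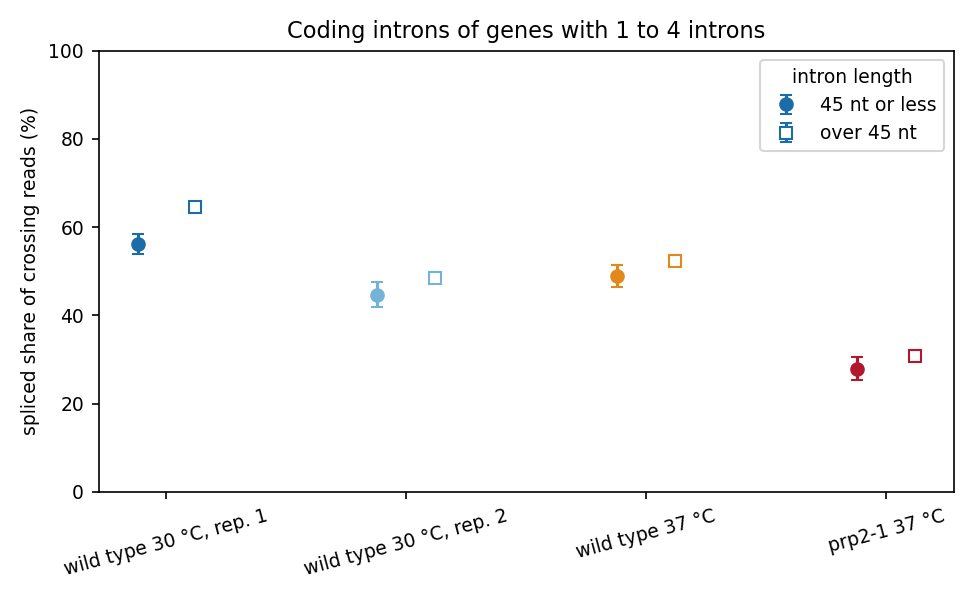
Percent of scored reads that were spliced in each of the 4 libraries, for the 772 short introns and the 3119 longer coding introns of genes with 1 to 4 introns, with 95% Wilson intervals. The short introns lie below the longer ones in each library, and both are lowest in prp2-1, at 27.9% and 30.9%.

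Setting prp2-1 beside the shifted wild type asks what a defective U2AF large subunit does to splicing at the same temperature. Short introns were spliced in fewer of the reads in prp2-1, with a difference of −21.0 points (interval −24.6 to −17.3), and so were longer ones, with −21.5. Comparing each intron with itself, the Mantel-Haenszel odds ratio of being spliced was 0.336 (95% interval 0.271 to 0.416) over 248 short introns read in both states, and 0.367 (0.336 to 0.402) over the longer introns. These intervals overlap. With the distance between intron and polymerase matched too, the odds ratio for the short introns was 0.332 (0.254 to 0.433). Both libraries were sequenced in 6 shared sequencing cells, named in the reads, and prp2-1 had the lower share in 6 of 6 of them, with differences from −29.6 to −17.6 points. Some read names occur in both files with different alignments, and their part in the difference was not tested. Without read names that occur more than once within a file, the difference was −21.1 points. The difference is beyond counting error, but with 1 library each it could not be set against the spread of replicates.

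No single short intron passed the test between prp2-1 and the wild type at 37 °C. Fisher's exact test (two-sided) was run at every intron of the annotation with 10 or more scored reads in both libraries, with Benjamini-Hochberg adjustment over all of them. It called 9 of 68 introns (13.2%) and 0 of the 6 members among them, of which 1 had an unadjusted p under 0.05. The share was lower in prp2-1 at 5 of the 6 members, with a median difference of −11.6 points, and at 55 of the 68 introns, with a median of −15.6. The smallest p among the members was that of cct6 intron 1, at a difference of −33.0 points (interval −53.1 to −7.81), with an exact p of 0.0178 and an adjusted p of 0.101. With 20 reads required in both libraries, 3 members were tested and 1 was called.

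The 30 °C replicates differed at the short introns as well, in both directions. Replicate 2 was below replicate 1 over all members (difference −11.6 points, interval −15.3 to −7.87), with an odds ratio by intron of 0.613 (0.511 to 0.735) and of 0.472 (0.366 to 0.610) with the distance matched. Fisher's exact test called 38 of 107 introns between the replicates (35.5%) and 2 of the 8 members tested, tif301 lower and elo2 higher in replicate 2. The strains differ in mating type and in the marked prp5, and the replicates share no sequencing cell. The part of either in the difference was not tested. Within a replicate the share moved less from cell to cell, between 54.3% and 61.8% over the 6 cells of replicate 1 and between 42.6% and 49.0% over the 3 of replicate 2.

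Between 37 °C and 30 °C the direction depended on the replicate. Libraries of different temperature share no sequencing cell, so cell and temperature cannot be told apart here. The shifted wild type was below replicate 1 (difference −7.33 points, interval −10.7 to −3.93) and above replicate 2 (4.26 points, 0.441 to 8.06). The odds ratios by intron were 0.768 (0.646 to 0.912) and 1.15 (0.946 to 1.39). Against replicate 1, of the same strain label, Fisher's exact test called 4 of 96 introns (4.17%) and 0 of 14 members, with 0 members at an unadjusted p under 0.05. Against replicate 2 it called 2 of 58 introns (3.45%) and 1 of 7 members, the intron of tif301.

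Genes of translation hold several of the most deeply read members. tif301 encodes eIF3a, a subunit of the complex that prepares the small ribosomal subunit for initiation. Its only intron was spliced in 23 of 24 reads in 30 °C replicate 1, 5 of 13 in replicate 2, 21 of 21 in the shifted wild type and 23 of 27 in prp2-1. Replicate 2 stands apart from the other 3 libraries. The difference between the replicates was −57.4 points (adjusted p = 0.00246, Fisher's exact test), and that of the shifted wild type from replicate 2 was 61.5 points (adjusted p = 0.00411). In prp2-1 the tif301 intron kept a high share, and its difference from the shifted wild type, −14.8 points, had an adjusted p of 0.358 by the same exact test.

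The other introns of initiation factor genes had fewer reads. In tif307, which encodes eIF3g, 5 of 11 and 1 of 3 reads were spliced at 30 °C, 10 of 13 in the shifted wild type and 1 of 7 in prp2-1. In tif308, which encodes eIF3h, the counts were 13 of 16, 4 of 9, 1 of 3 and 1 of 2. These introns had 10 or more reads in too few libraries for a test with prp2-1. In vrs1, the gene of the enzyme that charges tRNA with valine, 16 of 22 and 8 of 12 reads were spliced at 30 °C, 5 of 7 in the shifted wild type and 8 of 11 in prp2-1, all above 60%. Intron 2 of sce3, another initiation factor gene, was spliced in 4 of 13, 0 of 2, 2 of 12 and 2 of 9.

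The cct genes encode subunits of the ring-shaped chaperonin that folds actin and tubulin, and 5 of them hold 6 of the members (a group picked after its values were seen). Intron 1 of cct6 was spliced in 15 of 19 and 7 of 10 reads at 30 °C, 25 of 35 in the shifted wild type and 10 of 26 in prp2-1. Intron 2 of cct6 was spliced in 14 of 19, 5 of 10, 23 of 36 and 13 of 26. At intron 1 prp2-1 was the lowest of the libraries, while at intron 2 it equalled 30 °C replicate 2. In cct2 10 of 14, 2 of 9, 12 of 14 and 1 of 6 reads were spliced, and at intron 2 of cct1 9 of 9, 2 of 6, 5 of 9 and 1 of 6. Over the 6 cct introns together the shares were 77.9% and 48.8% at 30 °C, 68.6% in the shifted wild type and 38.6% in prp2-1.

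Reads over both short introns of cct6 show the states of the pair together. In the 3 wild-type libraries, of 18, 10 and 35 such reads, 13, 5 and 23 had lost both introns, 2, 2 and 2 had lost intron 1 only, and 0, 0 and 0 had lost intron 2 only. In prp2-1, of 25 reads, 7 had lost both, 2 had lost intron 1 only and 6 had lost intron 2 only. Reads with only the downstream intron removed were thus seen in prp2-1 and in no wild-type library at this depth. Intron 2 is the shorter of the pair and holds none of the 4 branch motifs, as printed above. The difference between the libraries in these counts was not tested.

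Other named introns lie in genes of membrane traffic, lipids and transport, and their counts follow in the same order of libraries. In chc1, the clathrin heavy chain gene, 11 of 18 and 10 of 18 reads were spliced at 30 °C, 12 of 16 in the shifted wild type and 10 of 14 in prp2-1, with the mutant within the range of the wild type. In elo2, of a fatty acid elongase family, 11 of 20 reads were spliced in replicate 1 and 12 of 12 in replicate 2, then 5 of 7 and 4 of 6 at 37 °C. The rise in replicate 2, 45 points (adjusted p = 0.0369, Fisher's exact test), went against the pooled difference; it lost the call when reads had to reach 25 nt past the intron (38.9 points, adjusted p = 0.0583) or when introns with 5 reads entered (adjusted p = 0.0834). In vps1302, a lipid transfer protein gene, the counts were 11 of 21, 8 of 9, 6 of 10 and 2 of 2. Intron 2 of mug64 had 18 of 19, 2 of 7, 7 of 10 and 7 of 9, and hob3, like mug64 the gene of a BAR protein, which binds curved membranes, had 6 of 11, 5 of 8, 8 of 11 and 1 of 8. In vma8, a subunit gene of the vacuolar proton pump, they were 10 of 16, 1 of 9, 1 of 4 and 1 of 8.

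Subunit genes of RNA polymerase II hold 2 of the named introns. In rpb4, whose product is a small subunit, 7 of 10 and 7 of 13 reads were spliced at 30 °C, 3 of 12 in the shifted wild type and 0 of 9 in prp2-1, which allows a share of up to 33.3% there. In rpb2, the gene of the second largest subunit, the counts were 7 of 12, 4 of 4, 7 of 11 and 2 of 8. Intron 2 of rpb4, which the rule does not name and which was picked after its values were seen, was spliced in 6 of 7, 6 of 8, 4 of 11 and 0 of 9. The members in rpb3, rpb9 and rpb11 had 6 scored reads or fewer in each library. A list of transcription genes drawn by gene symbol held 18 members in 15 genes. Its shares were 60.3% and 59.1% at 30 °C, 23 of 59 reads (38.98%) in the shifted wild type and 18.6% in prp2-1. The interval in prp2-1, 10.7 to 30.4, includes the share over all members. The interval in the shifted wild type, 27.6 to 51.7, overlaps those at 30 °C, 48.0 to 71.5 and 44.4 to 72.3.

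The remaining named introns belong to genes of varied role. In cmk2, a protein kinase activated by MAP kinase, 1 of 4, 1 of 10, 6 of 13 and 7 of 19 reads were spliced, and in grn1, a GTPase gene, 4 of 7, 4 of 13, 3 of 11 and 4 of 14. In ade2, an enzyme of purine synthesis, the counts were 11 of 18, 1 of 2, 4 of 11 and 3 of 5. In pre5, a proteasome subunit gene, they were 11 of 13, 3 of 9, 1 of 4 and 8 of 9. In these 4 genes prp2-1 was not the lowest library. In ini1, a RING finger-like gene, they were 5 of 13, 5 of 10, 0 of 3 and 0 of 6, with no spliced read at 37 °C. In intron 2 of ucp8 3 of 6, 5 of 5, 8 of 14 and 2 of 7 reads were spliced, and in urb1, a ribosome biogenesis gene, 8 of 14, 5 of 7, 4 of 6 and 3 of 4. Among the shortest named introns, SPCC663.18 had 2 of 7 and 5 of 6 at 30 °C, no scored read in the shifted wild type and 0 of 2 in prp2-1, and atg44, of mitochondrial fission, had 0 of 3, 1 of 2, 0 of 2 and 0 of 3.

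**Figure D2:**
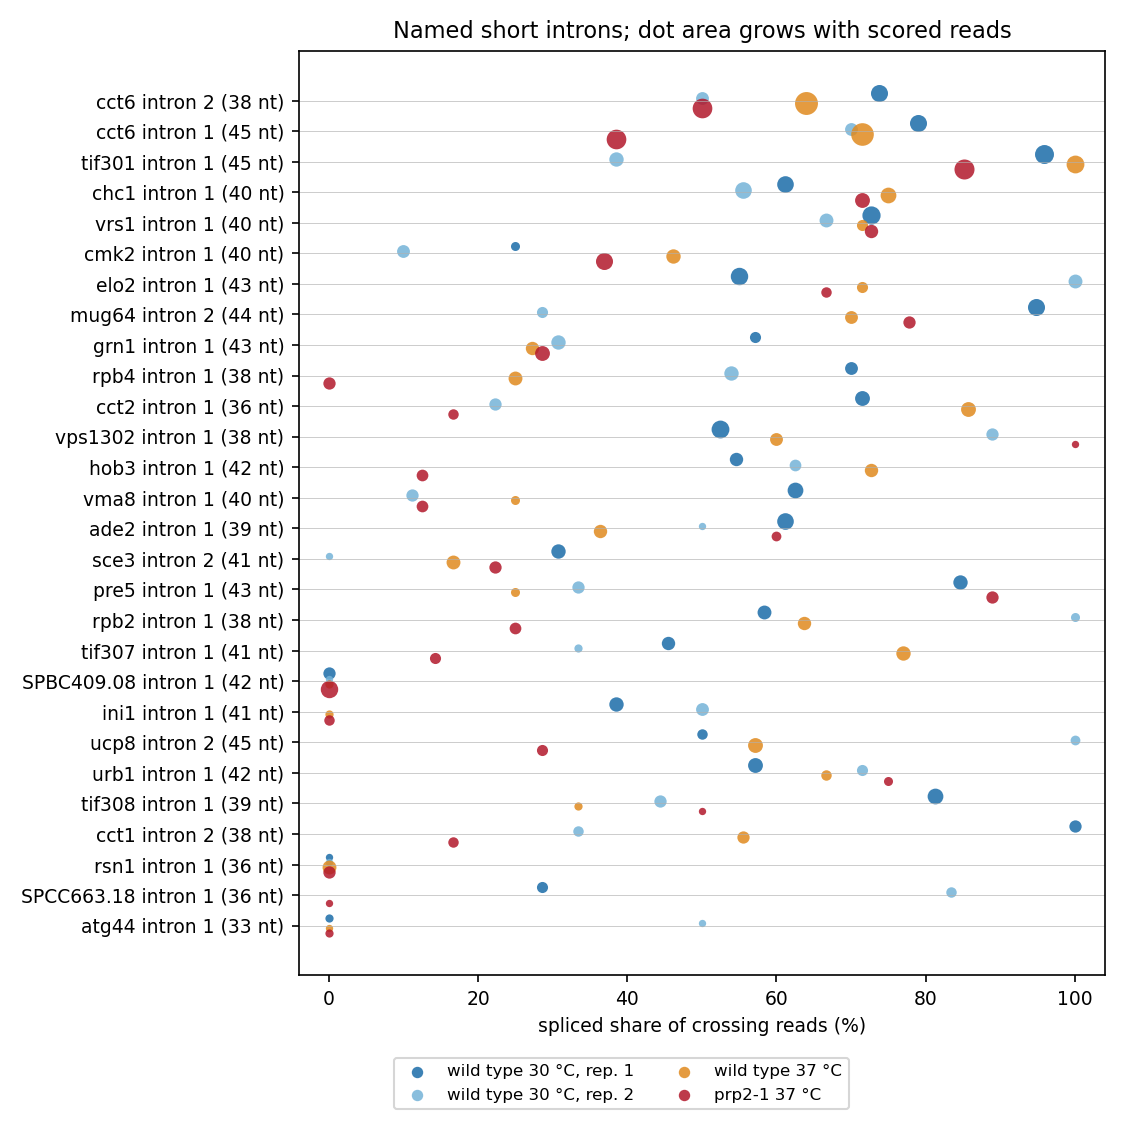
Percent of scored reads spliced at the named short introns in each library, on 1 row per intron. Dot area grows with the number of scored reads, which is small for most dots. Only tif301 (5 of 13 in 30 °C replicate 2) and elo2 (12 of 12 there) differ between libraries past the adjusted threshold.

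The other lists of genes, also drawn by gene symbol, were counted alike. A shared symbol need not mean a shared role: arp8, annotated as an actin-like protein of the Ino80 complex, is in the cytoskeleton list. In splicing genes (27 members in 21 genes) the spliced shares were 51.9% and 39.4% at 30 °C, 44.1% in the shifted wild type and 25.9% in prp2-1. In GTPase and traffic genes (19 members) they were 48.8%, 45.9%, 56% and 33.3%, and in cell cycle and cytoskeleton genes (24 members) 48.8%, 55.6%, 40% and 22.7%. In genes of mitochondria (16 members) they were 62.1%, 24.3%, 64.5% and 37.5%. In ubiquitin and proteasome genes (17 members) they were 50.7%, 36.4%, 36% and 44.4%, the only list of the 6 in which prp2-1 was above the shifted wild type. That value rests on 16 of 36 reads against 9 of 25, with intervals of 29.5 to 60.4 and 20.2 to 55.5 that overlap, and 8 of the 16 spliced reads are those of pre5.

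Among the members, the class of 36 nt or less had the lowest spliced share in each library. The 25 members of 36 nt or less were spliced in 48.8% and 36.8% of reads at 30 °C, 36.5% in the shifted wild type and 9.09% in prp2-1, where 4 of 44 reads were spliced (interval 3.59 to 21.2). The 156 members of 37 to 39 nt had 58.5%, 45.8%, 46.9% and 24.5%. The 277 of 40 to 42 nt had 54.2%, 42.5%, 50.9% and 26.1%, and the 314 of 43 to 45 nt had 57.4%, 46.6%, 50% and 33.5%. In prp2-1 the share was thus higher in each longer class, while in the wild-type libraries it was lowest in the shortest class with no steady order above it. By single lengths the share in prp2-1 did not rise steadily, with 31.0% at 40 nt, 21.0% at 42 nt, 38.3% at 43 nt and 29.9% at 45 nt. The difference between prp2-1 and the shifted wild type was −27.4, −22.5, −24.8 and −16.5 points from the shortest class to the longest. The shortest class rests on few genes: without cct2 its shares were 37.0%, 41.4%, 25% and 7.89%, a difference of −17.1 points between the 37 °C libraries, and without rsn1 51.3%, 38.9%, 43.5% and 11.4%, a difference of −32.1.

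**Figure D3:**
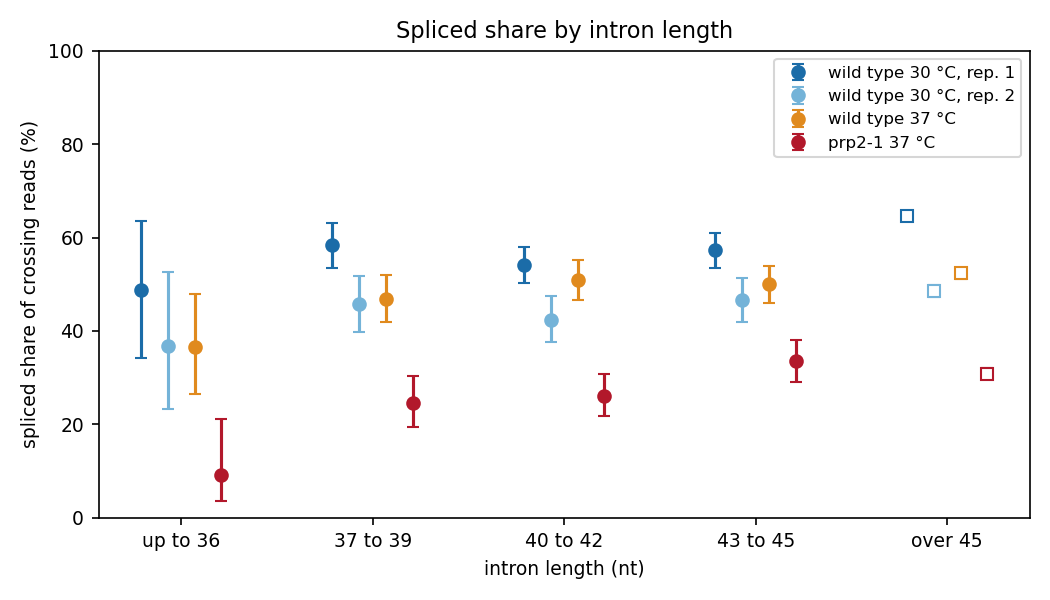
Percent of scored reads spliced by intron length class in each library, with 95% Wilson intervals. In prp2-1 the share is 9.09% at 36 nt or less and 33.5% at 43 to 45 nt, while the wild-type libraries show no steady order above 36 nt.

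Place in the gene moved the shares by less, and not alike in all libraries. Single introns were spliced in 55.9% and 45% of reads at 30 °C, 49.3% in the shifted wild type and 30.0% in prp2-1. First introns had 53.7%, 43.9%, 51.1% and 28.9%, internal introns 62.5%, 42.9%, 50.2% and 31.1%, and last introns 59.4%, 47.9%, 132 of 307 reads (42.997%) and 18.6%. Last introns were therefore among the higher classes at 30 °C and the lowest at 37 °C, in both strains. The value of single introns in prp2-1 falls to 23.8% without tif301. By number of introns in the gene, from 1 to 4, the share in prp2-1 was 30.0%, 17.6%, 32.1% and 31.1%, and in the shifted wild type 49.3%, 49.7%, 51.1% and 43.6%. The difference was widest in genes with 2 introns, at −32.2 points, against −19.3, −19.0 and −12.5 in genes with 1, 3 and 4.

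Reads whose polymerase had moved far past the intron had higher spliced shares than those close to it, described here without a test since the same introns recur in all classes. At 3′ ends up to 50 nt past the intron, 45.6% and 36.1% of reads were spliced at 30 °C, 36.7% in the shifted wild type and 20% in prp2-1. For ends above 200 and up to 400 nt they came to 58.7%, 44.0%, 42.9% and 24.1%, and above 800 nt they were 58.7%, 52.1%, 54.3% and 36.5%. Above 50 and up to 100 nt prp2-1 was at 8.89%. Even above 800 nt many wild-type reads still held the intron. The median distance of spliced and unspliced reads was 327.5 and 256 nt in replicate 1, 436 and 352.5 nt in replicate 2, 752.5 and 608.5 nt in the shifted wild type, and 853.5 and 612 nt in prp2-1.

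Splicing was seen with the polymerase very close to the intron. The closest 3′ end of a spliced read was 12 and 14 nt past the intron at 30 °C, 17 nt in the shifted wild type and 20 nt in prp2-1, where a read needs 10 nt to be scored. Within 25 nt, 15 reads were spliced and 20 unspliced in replicate 1, 6 and 14 in replicate 2, 7 and 8 in the shifted wild type and 1 and 11 in prp2-1. A 3′ end this close can also come from RNA that was cut or broken, which the files do not show and which was not tested.

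**Figure D4:**
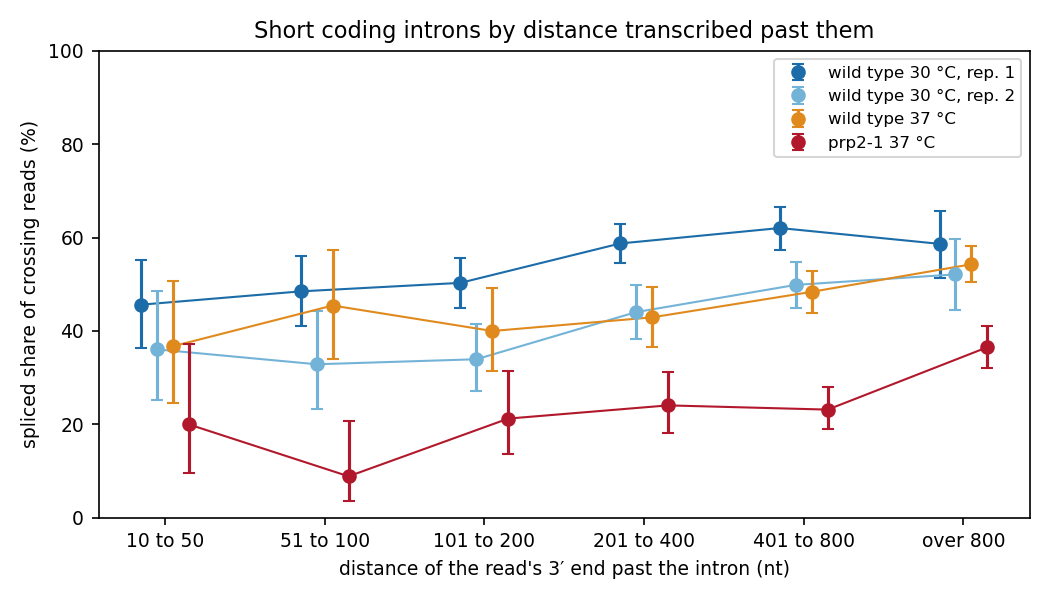
Percent of scored reads spliced at the short introns, by distance from the end of the intron to the 3′ end of the read, in each library with 95% Wilson intervals. Wild-type shares lie between 36.1% and 45.6% within 50 nt and between 52.1% and 58.7% above 800 nt, and prp2-1 lies below them in every distance class.

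Genes that hold both a short and a longer intron allow a comparison within the gene and within the read. Within genes, the odds ratio of splicing, short against longer, was 0.573 (95% interval 0.469 to 0.70) in 30 °C replicate 1, over 279 genes, and 0.826 (0.644 to 1.06) in replicate 2. It was 0.864 (0.710 to 1.05) in the shifted wild type and 0.670 (0.517 to 0.867) in prp2-1. All 4 values are below 1, and the intervals leave out 1 in replicate 1 and in prp2-1.

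In reads that crossed 1 short and 1 longer intron, those with only the short one spliced can be set against those with only the longer one spliced. In replicate 1, of 492 such reads, 12 had only the short intron spliced and 48 only the longer (exact two-sided binomial test, adjusted over the 4 libraries, p = 1.27e-05). In replicate 2, of 278 reads, the counts were 21 and 25 (adjusted exact p = 0.659). In the shifted wild type, of 365 reads, they were 34 and 26 (adjusted exact p = 0.488), and in prp2-1, of 252 reads, 19 and 38 (adjusted exact p = 0.0327). Among these reads, the short intron was thus the one retained more often in replicate 1 and in prp2-1, with no difference past the threshold in the other pair of libraries. Reads of the same gene share their introns, so these binomial tests do not measure the spread over genes. How far single genes supply the surplus was not tested. Fewer reads had only the short intron spliced in 5 of 6 sequencing cells of replicate 1, in 2 of 3 of replicate 2, in 1 of 6 of the shifted wild type and in 5 of 6 of prp2-1.

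The order of the introns along the gene sets which was transcribed first, so the counts are also given by order. With the short intron upstream, the reads with only the short and only the longer one spliced were 9 and 34 in replicate 1, 14 and 20 in replicate 2, 20 and 20 in the shifted wild type and 10 and 29 in prp2-1. With the short intron downstream they were 3 and 14, 7 and 5, 14 and 6, and 9 and 9. In prp2-1 the surplus of reads that kept the short intron was therefore found in those with the short intron upstream. The prp2-1 result passed the threshold with a narrow margin. With read names that occur more than once within a file left out, the short share of discordant reads was 34.6% against 33.3%. The adjusted p was then 0.073 by the exact binomial test.

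**Figure D5:**
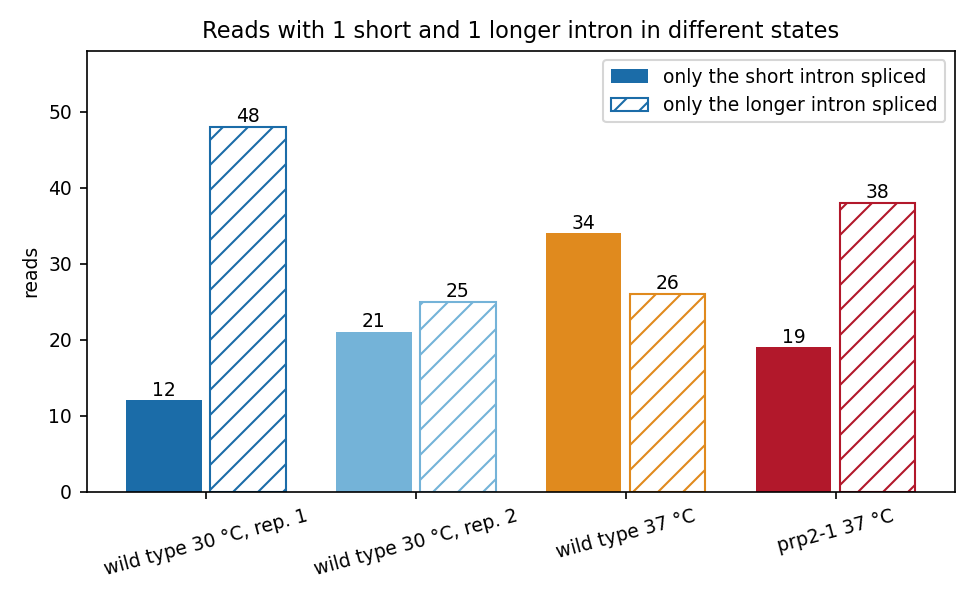
Reads that crossed 1 short and 1 longer intron of a gene and had only 1 of them spliced, counted by which intron was spliced, in each library. Only the longer intron was spliced in 48 reads against 12 in 30 °C replicate 1 and in 38 against 19 in prp2-1, and the counts were closer in the other libraries.

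Neighbouring introns were mostly in the same state in a read. For adjacent pairs with at least 1 short intron, both were spliced or both unspliced in 87.4% of 920 reads and 88.0% of 593 reads at 30 °C, in 83.7% of 1020 in the shifted wild type and in 76.5% of 659 in prp2-1. The odds ratio between the states of the pair, matched by pair, was 195 (44.8 to 847), 62.2 (18.8 to 205), 61.4 (26.3 to 143) and 16.3 (6.70 to 39.5). Among them, pairs of 2 short introns had 81.0%, 91.6%, 85.5% and 84.2%, over 95 to 179 reads. For pairs of longer introns the shares were 88.1%, 88.7%, 85.1% and 82.4%. Pairs of 2 short introns were thus below the longer pairs in 30 °C replicate 1 and above them in the other 3 libraries, which was not tested. Reads that crossed both the first and the last intron of a gene, both members, were few: 30, 24, 61 and 36, of which 0, 1, 7 and 2 had only the first spliced and 3, 2, 8 and 3 only the last.

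Reads that kept a short intron ran past the end of the gene more often than spliced ones in the pooled counts. Ends over 100 nt beyond the gene's annotated end were seen in 3.91% of unspliced and 2.43% of spliced reads in replicate 1, 4.79% and 2.77% in replicate 2, 10.9% and 3.80% in the shifted wild type and 6.15% and 2.98% in prp2-1. Matched by intron, the odds ratio had an interval above 1 in the shifted wild type alone, at 3.13 (1.58 to 6.21). It was 1.58 (0.733 to 3.41) and 0.304 (0.0831 to 1.11) at 30 °C and 5.61 (0.430 to 73.1) in prp2-1.

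A few members were never seen spliced at their annotated sites. They were picked after their values were seen, as all members with 8 or more scored reads over the 4 libraries and 0 spliced. Some of them are shown for their splice sites, with capitals as above. Last in the list is a pair of introns with 6 or more scored reads that were spliced in every read.
sce3 intron 1: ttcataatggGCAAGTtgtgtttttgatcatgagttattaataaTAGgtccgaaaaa
SPBC409.08 intron 1: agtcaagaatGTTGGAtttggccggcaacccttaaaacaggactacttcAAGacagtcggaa
rsn1 intron 1: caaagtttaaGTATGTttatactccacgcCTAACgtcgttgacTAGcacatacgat
SPBC1709.03 intron 1: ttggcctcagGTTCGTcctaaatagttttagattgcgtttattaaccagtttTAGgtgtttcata
pla1 intron 1: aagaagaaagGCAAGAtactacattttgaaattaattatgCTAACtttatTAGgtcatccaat
cwf14 intron 2: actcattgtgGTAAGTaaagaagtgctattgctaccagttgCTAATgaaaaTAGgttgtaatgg
rhp23 intron 2: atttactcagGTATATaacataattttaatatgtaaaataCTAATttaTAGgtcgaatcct
Of all members, 770 begin with GT and 2 with GC, and both of the latter, sce3 intron 1 and pla1 intron 1, are in this list. The sce3 intron (chromosome II, 1776857 to 1776893, minus strand) was unspliced in 35 of 35 scored reads. This allows a share spliced at its own sites of up to 8.57% among scored reads. An 11-nt exon separates it from intron 2, and 3 reads had a single gap of 86 nt, from 1776807 to 1776892, across both introns and that exon. In 1 more read the gap was of 80 nt, from 1776810 to 1776889. These 4 reads lacked the intron, but as reads in neither state they are outside the scored 35 and the limit.

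SPBC409.08, annotated as a spermine family transporter, kept its intron (chromosome II, 1152174 to 1152215, plus strand) in 34 of 34 scored reads, 20 of them in prp2-1, a limit of 8.82%. A further read, in neither state, had a gap of 947 nt across the intron. The intron has GTTGGA at the 5′ site and none of the 4 branch motifs. rsn1, annotated as a calcium transporter, kept its intron (chromosome II, 563929 to 563964, minus strand) in 25 of 25 reads, a limit of 12%, although it begins with GTATGT and ends with TAG, with CTAAC between them. Its 36 nt hold no stop codon in frame, so that a retained intron leaves the reading frame open. The other members never seen spliced at their annotated sites were SPBC1709.03 (0 of 15) and intron 3 of smg1 (0 of 12), which encodes a core protein of the spliceosomal snRNPs. Also in this list were crs1 (0 of 9), a cyclin gene, got1 (0 of 8) and pla1 (0 of 8), the poly(A) polymerase gene. At SPBC1709.03, 2 more reads, in neither state, had gaps of 39 and 52 nt. Both gaps began within 5 nt of its annotated 5′ site and ended elsewhere than its 3′ site. At the other end, intron 2 of cwf14 was spliced in 8 of 8 reads and intron 2 of rhp23 in 7 of 7. Of the 164 members with 10 or more reads in all, 25 were spliced in at most 25% of reads, 10 in at least 75%, and the median was 50%.

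Reads in neither state mostly joined annotated sites of different introns. Of 47 such reads, each counted once, 31 had a gap from an annotated 5′ site of the gene to the annotated 3′ site of another of its introns, so that the exons between were missing. A further 6 used an annotated 5′ site only, 8 an annotated 3′ site only, and 2 neither, all within 5 nt. In cgr1, of ribosome biogenesis, 2 reads had a single 82-nt gap from the 5′ site of intron 1 into intron 2. It ended at 3801601, inside intron 2, whose annotated 3′ end is at 3801590 (minus strand).

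The sequence features of the members differ from those of longer introns, as a description of the annotation. The 5′ sequence GTAAGT begins 23.3% of short and 29.7% of longer introns, GTATGT 16.7% and 21.5%, and GTAAGA 8.81% and 6.09%. At the 3′ end, TAG closes 65.3% and 71.0%, CAG 19.3% and 18.3%, and AAG 15.2% and 10.6%. At least 1 of these 4 branch motifs, searched on the gene's strand, is found in 539 short introns (69.8%) and in 79.9% of the longer ones, and CTAAC alone in 33.2% and 47.7%. Windows of the same length in neighbouring exons hold one of the motifs in 8.61% of cases for the short introns and 16.5% for the longer ones. From the branch adenosine to the end of the intron the median is 9 nt against 12, and the stretch between motif and final 3 bases has a median of 5 nt against 8. T makes up 44.1% of that stretch in the short introns. Median A and T content is 72.5% in short and 70.8% in longer introns, against 63.0% in the exon windows of the short ones.

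Shares by branch motif rest in part on single genes. With all members they were 57.6% and 50.1% with CTAAC at 30 °C against 52.4% and 40.8% with none, 51.9% against 42.9% in the shifted wild type, and 30.7% against 26.4% in prp2-1. Some genes were then left out, picked after their values were seen. They were tif301, which holds CTAAC, and sce3 (both introns) and SPBC409.08, which hold none. The order in prp2-1 then turned, with 26.8% for CTAAC and 29.2% for none. In the wild-type libraries the shares then were 55.9%, 50.6% and 49.9% with CTAAC and 55%, 41.5% and 44.99% with none. Without cct6, the most deeply read gene in both classes, the order held in every library. With CTAAC the shares were 56.9%, 49.6%, 50.5% and 30.2%, and with none 51.7%, 40.5%, 41.1% and 24.4%. With all its members, CTAAT gave 60.4%, 44.3%, 49.5% and 29.4%. CTGAC, in 43 members, gave 55.6%, 37.3%, 52.9% and 18.2%. CTGAT, in 19 members, gave 41.9%, 39.3% and 65.9% in the wild-type libraries, and 1 of 27 reads in prp2-1.

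Retention of a short intron most often puts a stop codon in the reading frame. This holds for 79.3% of members and 89.5% of longer introns, while 15.3% and 8.34% would shift the frame without a stop inside the intron and 5.44% and 2.12% would leave it open. Lengths that are a multiple of 3 make up 37.3% of the members and 30.9% of the longer introns. The 42 members that leave the frame open were spliced in 41.1% and 27.5% of reads at 30 °C, 36.3% in the shifted wild type and 25.5% in prp2-1, against 57.2%, 45.8%, 49.3% and 28.8% for those with a stop. Without rsn1, the most deeply read of them, the shares were 42.6%, 28.9%, 42.6% and 31.6%, so that the order in prp2-1 turned. The 18 members next to an exon under 20 nt had 39.1%, 25%, 6.45% and 11.1%, and without sce3 53.8%, 30%, 0 of 7 reads and 11.1%.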

How the data were processed

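Nuclear RNA depleted of polyadenylated and ribosomal RNA was sequenced as long circular consensus reads, per the labels. The 4 deposited files give other values than counts or levels: the position, strand and aligned blocks of each read, 1 line per read, with no normalisation by the authors. Reads with poly(A) had been filtered out, per the file names. cutadapt 1.8 is named in the submitters' processing notes. The aligner and genome build are not given in the sources used here. RefSeq's ASM294v3 assembly served as reference, in which 87.7% to 93.6% of the gaps of a library have exactly the ends of an annotated intron. Annotated exon gaps under 20 nt were left out as sequence corrections.

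Calls, shares and tests were computed in Python 3.11.15 with SciPy 1.17.1, and figures with matplotlib 3.10.9. The calls and tests were first tested on simulated data. Shares pool reads over members and have Wilson intervals at 95%. Differences have Newcombe intervals, and common odds ratios are Mantel-Haenszel estimates with Robins-Breslow-Greenland intervals. Per-intron tests are Fisher's exact tests at introns with 10 or more scored reads in both libraries, adjusted by Benjamini-Hochberg over all introns tested, with a threshold of 0.05. The limit for a count of 0 is 3 counts of the total. Sequencing cells were taken from read names. Of the read names, 3769 occur in both 37 °C files with 0 identical alignments, and they gave 142 and 96 scored crossings of members. How they arose was not tested.

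Libraries were grouped by their titles. The members, lists, tests and other settings were chosen with earlier results of these data known. Named introns are the 24 members with the most scored reads, 1 per gene, those called in any comparison, those with 10 or more scored reads in both 37 °C libraries, and the 4 shortest with 10 or more reads in all. Others are said to be picked after their values were seen.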

Additional observations from a re-analysis of the deposited data

How the results depend on the processing

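Alternatives used another reach of the read past the intron (5 or 25 nt), exact gap ends or identical alignments counted once. Read names repeated within a file were left out, and other length limits (40 or 50 nt) and read minima were used. For shares by class, the most deeply read member of the class was left out. In all, the results were recomputed in 341 alternatives. In 327 of them the value kept its direction and its side of the threshold, or, for a count or a value with no test, stayed near the reported one. An equal count need not name the same introns: with a minimum of 5 reads, 2 members were again called between the 30 °C replicates, of which 1 was shared, tif301, and the other was intron 2 of mug64 in place of elo2. The cause was not tested where they did not. With a mean over members of 5 reads or more in place of pooled reads, the difference of the shifted wild type from 30 °C replicate 1 was −3.06 points, and the shares were 54.2% in the shifted wild type and 33.2% in prp2-1. With members of up to 40 nt only, the share in prp2-1 was 24.8%, the odds ratio of short to longer introns within genes in prp2-1 was 0.478, and the short share of discordant reads was 28.6% in 30 °C replicate 2 (adjusted exact p = 0.0476) and 36.2% in the shifted wild type (adjusted exact p = 0.0789), the latter a turn in direction. With names repeated within a file left out, that share in prp2-1 was 34.6% (adjusted exact p = 0.073). With a reach of 25 nt, 1 of 7 members was called between the 30 °C replicates. With a minimum of 20 reads, 1 of 3 members was called between prp2-1 and the wild type, where fewer introns were tested, and the comparisons with 30 °C replicate 2 had no member to test. Without its most deeply read member, the class of 36 nt or less had a share of 25% in the shifted wild type, and single introns 23.8% in prp2-1. Leaving out each 30 °C replicate gave a mean of 44.7% to 56.2%. No paired analysis was possible because the groups share only replicate number 1. The 37 °C libraries were compared within shared sequencing cells instead, as given above. Depth limits what single introns show: at 10 reads an interval spans much of the scale, and 9 members reached that depth in prp2-1.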
